A study of Mus musculus with 2 samples.

Results

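The miR-30 family hairpins are the 6 microRNA genes Mir30a, Mir30b, Mir30c-1, Mir30c-2, Mir30d and Mir30e, taken by gene name from the 2202 microRNA genes counted. Their levels were measured by microRNA sequencing in adrenal gland, the organ whose cortex makes steroid hormones and whose medulla makes catecholamines. The tissue came from male mice of the hybrid strain B6CASTF1/J, aged 25 days, for which the labels name no treatment. There was 1 group of 2 libraries, labelled as biological replicates 1 and 2 from separately numbered animals that share a single donor entry. The spread between the libraries may therefore be technical, and the design holds no condition against which levels could be set.

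A microRNA hairpin is cut to a duplex of about the length of a small interfering RNA, and either the 5p or the 3p arm may be loaded into an Argonaute protein. The loaded arm finds messenger RNAs mainly through its seed, bases 2 to 8. Mammalian miR-30 microRNAs share the seed of their 5p arm and are broadly expressed. Studies in other tissues have tied them to podocyte survival in kidney, to adipocyte differentiation and to the repression of genes such as Snai1 and Becn1.

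The mature arms are shown because they decide which reads could be told apart. The sequences are from RefSeq (GRCm38.p6) for 4 of the 6 members, and Mir30b and Mir30d are given by name only. Capitals mark the seed, and each sequence runs 5′ to 3′.
mmu-miR-30a-5p: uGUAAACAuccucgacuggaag
mmu-miR-30e-5p: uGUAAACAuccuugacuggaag
mmu-miR-30c-5p: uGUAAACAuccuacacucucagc
mmu-miR-30a-3p: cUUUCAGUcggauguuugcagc
mmu-miR-30e-3p: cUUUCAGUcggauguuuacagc
mmu-miR-30c-1-3p: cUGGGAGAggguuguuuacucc
mmu-miR-30c-2-3p: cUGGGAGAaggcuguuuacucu

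The first 12 bases, UGUAAACAUCCU, were identical in the 5p arms of all 4 of these members. With positions counted from 1 at the 5′ end of the arm, Mir30e differed from Mir30a by C13U in the 5p arm and by G18A in the 3p arm. The longest run of bases that the hairpins of Mir30a and Mir30e shared was 18. Mir30c-1 and Mir30c-2 carried the same 5p arm of 23 bases, within a run of 28 bases common to both hairpins. Their 3p arms differed by G9A, U12C and C22U, from Mir30c-1 to Mir30c-2. The hairpins below show where the shared arm lies, with both mature arms in capitals.
Mir30c-1: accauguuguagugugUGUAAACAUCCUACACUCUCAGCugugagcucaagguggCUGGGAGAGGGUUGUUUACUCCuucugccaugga
Mir30c-2: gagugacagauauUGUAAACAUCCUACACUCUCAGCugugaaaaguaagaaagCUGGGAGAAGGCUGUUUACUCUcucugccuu
A read of the complete miR-30c-5p sequence matches both hairpins, and reads with several mapping places were assigned to no gene. The counts of Mir30c-1 and Mir30c-2 therefore leave out such reads, and the level of miR-30c-5p cannot be read from them.

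The members lie in 3 clusters (mm10, GENCODE M21). Mir30e (ENSMUSG00000065409.1, chromosome 4, 120772606 to 120772697, minus strand) and Mir30c-1 (ENSMUSG00000065490.1, 120769534 to 120769622) sit 2983 bases apart in introns of Nfyc, which encodes a subunit of the CCAAT-binding factor NF-Y. Mir30a (ENSMUSG00000065405.3, chromosome 1, 23272269 to 23272339, plus strand) lies outside other annotated genes. Its mate Mir30c-2 (ENSMUSG00000065567.1, 23291701 to 23291784) lies 19361 bases away in an exon of the long noncoding Gm27028. Mir30d (ENSMUSG00000065437.1, chromosome 15, 68341208 to 68341289, minus strand) lies in an exon of the long noncoding Gm20732. Mir30b (ENSMUSG00000065476.2, 68337415 to 68337510) is 3697 bases away on the same strand, outside other annotated genes.

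The libraries held 3588361 (replicate 1) and 4541373 (replicate 2) counts on the sense strand of microRNA genes. A count of 0 allowed up to 0.836 and 0.661 counts per 1000000 sense counts (CPM) in replicates 1 and 2, counting error only. The marker lists hold no hairpin specific to adrenal cortex. The 4 chromaffin and neuroendocrine marker hairpins, all detected, summed to 39476 CPM in replicate 1 and 33420 CPM in replicate 2. Most of each sum was Mir375, with 33380 CPM in replicate 1 and 29004 CPM in replicate 2. Mir375, Mir7b and Mir7-1 were higher in replicate 1, while Mir7-2 was higher in replicate 2 (48.5 and 71.6 CPM). Replicate 2 stood apart in Mir122, the hepatocyte hairpin, with 197553 CPM against 892 CPM in replicate 1. The 4 kidney markers, Mir192, Mir194-1, Mir194-2 and Mir204, summed to 105.9 CPM in replicate 1 and 1399 CPM in replicate 2. That difference lay in Mir192 (19.5 and 569 CPM) and the Mir194 hairpins, while Mir204 went the other way, with 48.5 CPM in replicate 1 and 35.7 CPM in replicate 2. The 3 leukocyte markers, Mir142, Mir150 and Mir223, summed to 1956 CPM in replicate 1 and 837 CPM in replicate 2. The 8 striated muscle markers summed to 1006 and 1.32 CPM in replicates 1 and 2. Among them, Mir206 had 3540 and 3 counts and gave 987 of the 1006 CPM in replicate 1. Mir133a-2 had none in either library. Reads of numbered copies, such as Mir133a-1 and Mir133a-2, were not counted where they mapped to several places. A count of 0 there does not show that the mature microRNA was absent. In bulk tissue, fewer cells of a type and less RNA per cell cannot be told apart.

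All 6 members were detected, that is, had at least 10 counts in both libraries, as did 352 of the 2202 genes. Together they held 4.17% of sense counts in replicate 1 and 2.69% in replicate 2, or 3.43% ± 1.04 (SD, n = 2). Hairpins grouped by the number in their name formed 932 groups, of which 585 had a count. The miR-30 group, which by name also takes in Mir30f without a sense count, ranked 7 in replicate 1, 9 in replicate 2 and 8 by mean share. The let-7 group, led by Mirlet7g, held 21.6% ± 2.57 and ranked first. The miR-26 group, led by Mir26b, held 3.15% ± 1.11 and came directly after miR-30. These means differed by less than the spread between the libraries, but the order was the same in each. The miR-26 group held 3.94% in replicate 1 and 2.37% in replicate 2. The miR-29 group, led by Mir29a, held 0.412% ± 0.0493 and ranked 30. These shares and ranks hold for uniquely mapped reads alone, since 31.6% and 27.0% of input reads in replicates 1 and 2 mapped to several places and were left uncounted, and groups with near-identical copies are understated.

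The family split into 3 abundant and 3 scarce hairpins. Levels were not divided by hairpin length, since a microRNA read covers a mature arm and not the hairpin. Mir30e, the highest member, had 57436 counts (16006 CPM) in replicate 1 and 59008 counts (12993 CPM) in replicate 2. Mir30a had 51819 counts (14441 CPM) and 36000 counts (7927 CPM) in replicates 1 and 2. Mir30d had 37909 counts (10564 CPM) and 24045 counts (5295 CPM). The means were 14500 CPM ± 2130 for Mir30e, 11184 CPM ± 4606 for Mir30a and 7930 CPM ± 3726 for Mir30d (SD, n = 2), so neighbours in this order did not differ beyond the spread between libraries. Within each library they did differ beyond counting error, in the same order, and they ranked 16, 17 and 22 among all hairpins in replicate 1 and 18, 22 and 32 in replicate 2.

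The scarce members lay far below. Mir30c-2 had 912 counts (254 CPM) in replicate 1 and 1291 counts (284 CPM) in replicate 2. Mir30b had 819 and 1035 counts, or 228 CPM in each library. Mir30c-1 had 623 and 787 counts, or 174 and 173 CPM. Even the lowest abundant member, Mir30d, had 41.6 times the counts of Mir30c-2 in replicate 1 (38.9 to 44.4, exact 95% interval) and 18.6 times in replicate 2 (17.6 to 19.7). Mir30b exceeded Mir30c-1 1.31-fold in replicate 1 (1.18 to 1.46) and 1.32-fold in replicate 2 (1.20 to 1.44). For Mir30c-1 and Mir30c-2 these are levels of uniquely mapped reads alone.

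**Figure D1:**
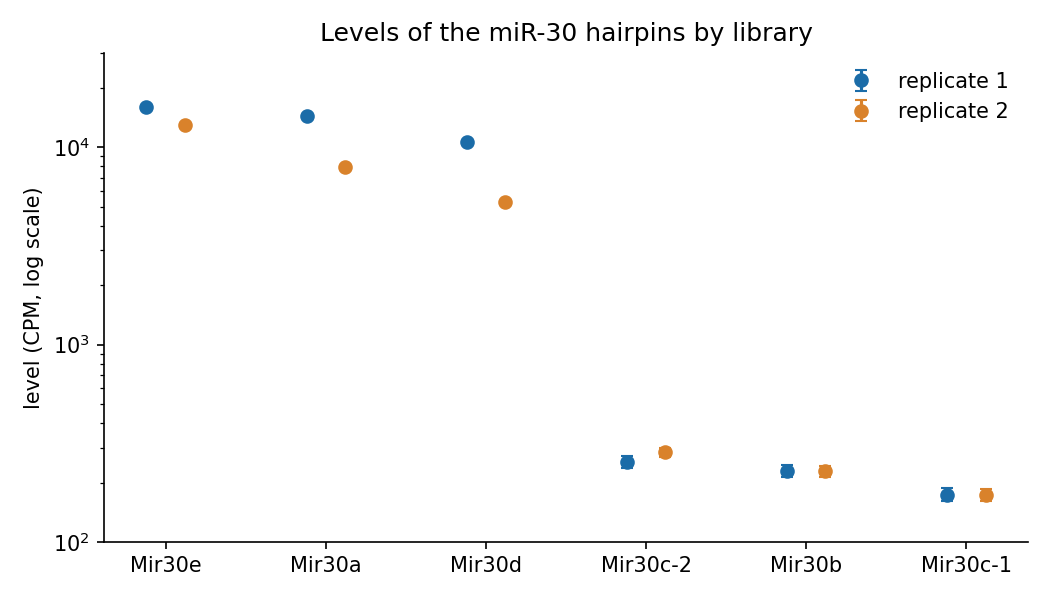
Levels of the 6 hairpins in CPM of uniquely mapped reads (log axis) in replicates 1 and 2. Points are single libraries and bars are exact 95% intervals for counting error. Mir30e, Mir30a and Mir30d lie between 5295 and 16006 CPM in either library, and Mir30c-2, Mir30b and Mir30c-1 between 173 and 284 CPM.

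The share of each hairpin within the family does not depend on the library total. Mir30e made up 38.4% of the family counts in replicate 1 (38.2 to 38.7, exact 95% interval) and 48.3% in replicate 2 (48.0 to 48.6). Mir30a made up 34.7% (34.4 to 34.9) and 29.5% (29.2 to 29.7) in replicates 1 and 2. Mir30d made up 25.4% (25.1 to 25.6) and 19.7% (19.5 to 19.9). The family was thus weighted more to Mir30a and Mir30d in replicate 1 and more to Mir30e in replicate 2, with differences beyond counting error. The 3 scarce members together made up 1.57% of the family counts in replicate 1 and 2.55% in replicate 2. All these shares are of uniquely mapped reads. Reads of miR-30c-5p that match both Mir30c-1 and Mir30c-2 are missing from them.

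**Figure D2:**
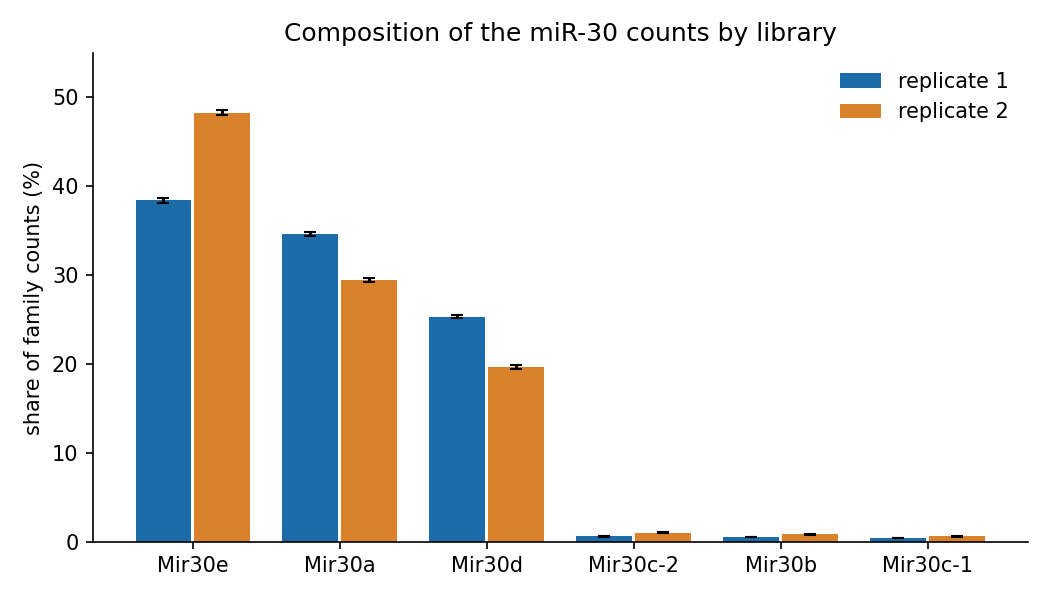
Share of the family counts (%) held by each hairpin in replicates 1 and 2, with exact 95% intervals for counting error. Mir30e holds the largest share in both libraries, at 48.3% of the family counts against 38.4% in replicate 1, while Mir30a and Mir30d are larger in replicate 1.

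Between the libraries, the abundant members differed and 2 of the scarce ones were not distinguishable. The reads of each detected gene were tested with an exact binomial test, two-sided and Benjamini-Hochberg adjusted over all detected genes, which weighs the libraries against each other and says nothing of conditions. It called 67% of the 352 detected genes at 0.05, 36.6% as higher in replicate 1 and 30.4% as higher in replicate 2. Of the 6 members it called 4, a share near that background. Mir30d was 2.00-fold (1.96 to 2.03), Mir30a 1.82-fold (1.80 to 1.85) and Mir30e 1.23-fold (1.22 to 1.25) higher in replicate 1. The exact binomial test gave Mir30e an adjusted p of 1.73e-275 and the other two smaller values. Mir30c-2 stood in replicate 1 at 0.894 of its replicate 2 level (0.820 to 0.974, exact binomial test, adjusted p = 0.0160). The ratios of Mir30b, 1.00 (0.913 to 1.10), and Mir30c-1, 1.00 (0.900 to 1.11), did not pass.

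These ratios move with the library total. The median log2 ratio of replicate 1 over replicate 2 was 0.04 over all detected genes and -0.28 with Mir122 left out of the totals, where 71.2% of genes were called, 21.4% as higher in replicate 1 and 49.9% as higher in replicate 2. Without Mir122, Mir30d and Mir30a were still higher in replicate 1, at ratios of 1.60 and 1.46. Mir30e came to 0.989 and was no longer called (exact binomial test, adjusted p = 0.0920), and Mir30c-2, Mir30b and Mir30c-1 were called lower in replicate 1, at 0.718, 0.804 and 0.805. Relative to the median detected gene, the log2 ratio was 0.96 for Mir30d, 0.83 for Mir30a and 0.26 for Mir30e. It was -0.04 for Mir30b, -0.04 for Mir30c-1 and -0.20 for Mir30c-2. Of the detected genes, 26 had a higher ratio than Mir30d and 33 a higher ratio than Mir30a, and the lower and upper quartiles of the detected genes were ratios of 0.773 and 1.41. Replicate 2 is the library high in Mir122, Mir192 and Mir194-2. Replicate 1 is the library high in Mir206 of the striated muscle list. Its leukocyte markers were higher as Mir30d and Mir30a were, Mir142 by 3.19-fold, Mir223 by 2.42-fold and Mir150 by 1.66-fold. The part of these cells and tissues in the ratios of the members was not tested.

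**Figure D3:**
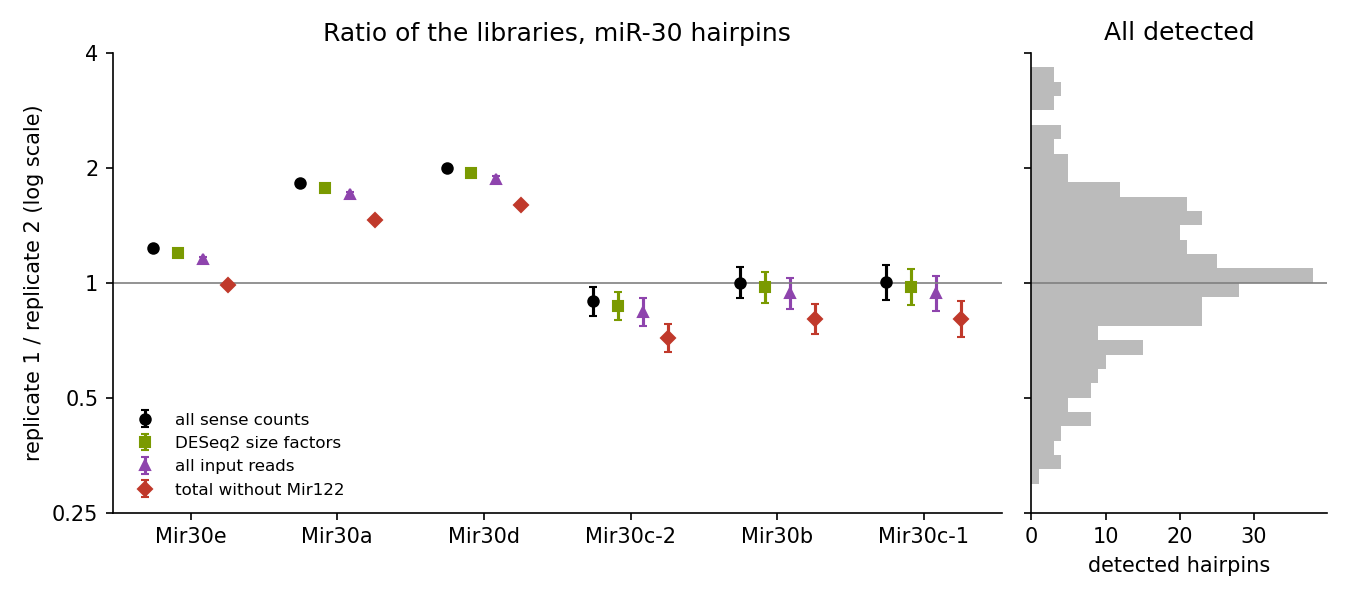
Left, ratio of replicate 1 over replicate 2 (log axis) for each hairpin under 4 library scalings, with exact 95% intervals for counting error. Right, the same ratio for detected hairpins with all sense counts as the total (15 of 352 lie beyond the axis). Mir30d and Mir30a stay above 1 under the 4 scalings drawn, while Mir30e lies at 0.989 without Mir122.

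Members of the comparison groups were tested in the same fit, to be read against the 36.6% of all detected genes called higher in replicate 1 and the 30.4% called higher in replicate 2. Of 11 detected let-7 hairpins, 8 were called higher in replicate 1, 2 higher in replicate 2 and 1 was not called, with a median log2 ratio of 0.26. Of 3 miR-26 hairpins, 3 were called higher in replicate 1, with a median of 0.85. That median is the value of Mir26a-2, which had 152 and 107 uniquely mapped counts in replicates 1 and 2. Mir26b, with 140876 and 107339 counts, had a log2 ratio of 0.73. Of 4 miR-29 hairpins, 1 was called higher in replicate 2 and 3 were not called, with a median of -0.16. The median of the 6 miR-30 hairpins was 0.15. With Mir122 out of the totals, 21.4% of all genes tested were called higher in replicate 1 and 49.9% higher in replicate 2. The let-7 calls then turned to 3 higher in replicate 1 and 7 higher in replicate 2, with a median of -0.05. The miR-30 calls turned to 2 and 3, with a median of -0.16. The miR-26 calls stayed at 3 higher in replicate 1, with a median of 0.53, and 3 miR-29 hairpins were called higher in replicate 2, with a median of -0.48. The difference between the groups was not tested.

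The counts of cluster mates did not keep a fixed ratio between the libraries. On chromosome 1, Mir30a had 56.8 times the counts of Mir30c-2 in replicate 1 (53.2 to 60.7) and 27.9 times in replicate 2 (26.4 to 29.5). On chromosome 15, Mir30d had 46.3 times the counts of Mir30b in replicate 1 (43.2 to 49.7) and 23.2 times in replicate 2 (21.8 to 24.7). Inside Nfyc, Mir30e had 92.2 times the counts of Mir30c-1 in replicate 1 (85.2 to 99.9) and 75.0 times in replicate 2 (69.9 to 80.5). In all 3 clusters the abundant mate was further ahead in replicate 1, by more than counting error and independently of the library total. The 5p reads that match both Mir30c-1 and Mir30c-2 were not counted and are missing from these ratios. The ratios on chromosome 1 and inside Nfyc are therefore of uniquely mapped reads alone and do not give the proportion of the mates.

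**Figure D4:**
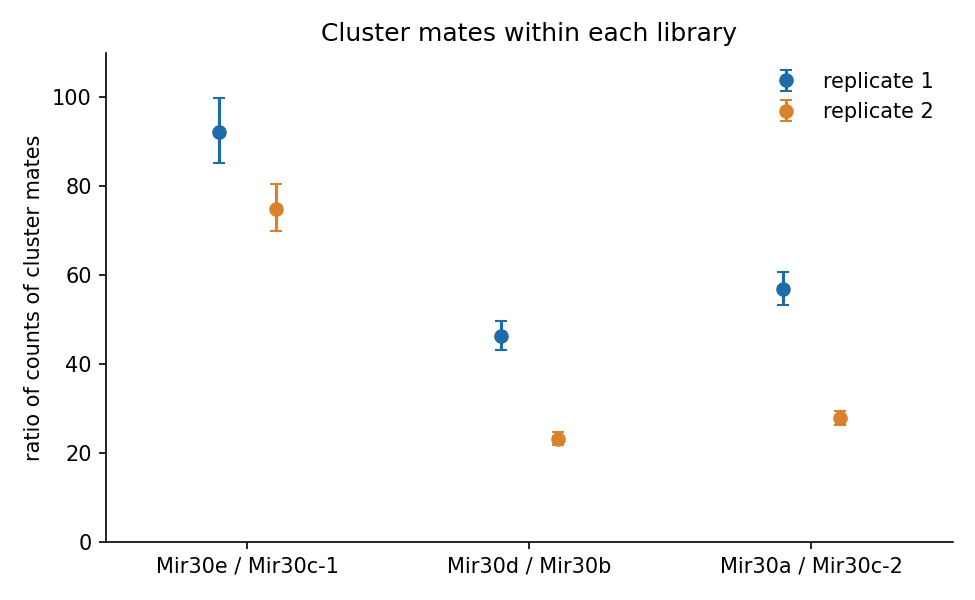
Counts of the abundant hairpin over those of its cluster mate within each library, with exact 95% intervals for counting error. The ratio is larger in replicate 1 for all 3 pairs, at 92.2, 46.3 and 56.8 in replicate 1 against 75.0, 23.2 and 27.9 in replicate 2.

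Strand decided the count of Mir30e. All sense counts of the 6 members came with 0 antisense counts at the same hairpins in both libraries. The annotation places Mir30f (ENSMUSG00000105585.1) on the plus strand over the same 120772606 to 120772697 of chromosome 4 as Mir30e. In the either-strand column Mir30e and Mir30f both stood at 0, because reads over both are ambiguous without strand. The 57436 and 59008 Mir30e reads amount to 9.59% and 8.59% of all reads that the either-strand column left as ambiguous in replicates 1 and 2. The same numbers stood as antisense counts at Mir30f, which had 0 sense counts in either library. The RefSeq entry for the mature product of Mir30f is shown because it carries the family seed at bases 1 to 7, displaced from the usual position, with its own bases 2 to 8 in capitals.
mmu-miR-30f: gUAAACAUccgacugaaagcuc

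The seed was searched for in the mature arms of 1005 RefSeq hairpins, which do not include Mir30b and Mir30d. Among the hairpins searched, only Mir384 on the X chromosome lay outside the family and had the seed GUAAACA at bases 2 to 8. Its 5p arm departs from the family after the seed.
mmu-miR-384-5p: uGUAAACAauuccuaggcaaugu
Mir384 had 86 counts (24.0 CPM) in replicate 1 and 66 counts (14.5 CPM) in replicate 2, below every member. It was called 1.65-fold higher in replicate 1 (exact binomial test, adjusted p = 0.00425).

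The hairpin outside the family with the nearest levels over the 2 libraries, by distance in log2 CPM, was Mir127 for Mir30e (0.20), Mir21a for Mir30a (0.33) and Mir191 for Mir30d (0.30). It was Mir296 for Mir30c-2 (0.08), Mir770 for Mir30b (0.02) and Mir503 for Mir30c-1 (0.14). None of these lies in the cluster of the member it resembled, and the likeness rests on 2 libraries alone.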

How the data were processed

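Raw read counts per microRNA gene, not normalised, were deposited by the authors, 1 table per library, from alignments to mm10 with GENCODE M21, per the text files accompanying the tables. Which aligner and trimming were used is not given in the sources here. Tables have 3 count columns (either strand, sense, antisense) and 4 summary lines, left out of totals. Of input reads, 41.4% and 44.2% were sense counts and 31.6% and 27.0% mapped to several places in replicates 1 and 2.

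Gene names came from GENCODE M21 (2202 of 2202 matched) and sequences from RefSeq GRCm38.p6, whose spans equal those of GENCODE for 4 of 4 matched members. CPM is sense counts per 1000000 sense counts. Detected genes (10 or more counts in each library) were tested with an exact binomial test, adjusted by Benjamini-Hochberg, after the test was tried on simulated data. Ratios carry no pseudocount. Intervals are exact at 95% (Clopper-Pearson), and intervals and floors (3 counts) reflect counting error alone, as the reads carry no molecular identifiers and need not be separate molecules. Named genes were the members, other hairpins with their seed, the nearest hairpin to each member, the leaders of the let-7, miR-26 and miR-29 name groups and marker hairpins. The members and lists were chosen with earlier results of these data known. The marker lists not described in the results summed to 62826 and 60799 CPM (endothelial Mir126a) and 1487 and 1248 CPM (erythroid) in replicates 1 and 2. Alternatives were other totals, edgeR 4.0.16 TMM factors, DESeq2 1.42.0 size factors, other count minimums, the either-strand column and leaving out each library. R 4.3.3 ran these packages, and the rest ran in Python 3.11.15 with scipy 1.17.1, pandas 2.3.3, matplotlib 3.10.9 and numpy 2.4.6.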

Additional observations from a re-analysis of the deposited data

How the results depend on the processing

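The number of members called stayed between 3 and 5 under the 7 alternatives tried, and 6 members were detected with minimums of 1 and 50 counts. The share of all genes called ran from 42.5% (minimum of 1 count) to 77.9% (minimum of 50 counts), with 4 members called in both. In the either-strand column 3 of 5 detected members were called, beside 65.0% of all genes. Without Mir122 it was 5 of 6, beside 71.2%. With all input reads as the total the family share was 1.46%, since the total then holds uncounted reads, and in the either-strand column it was 2.36%, since Mir30e is at 0 there. Leaving out a library gave a share of 2.69% to 4.17% and a rank of 7 to 9. Ratios of replicate 1 over replicate 2 changed direction with Mir122 out of the totals for Mir30e (0.989), Mir30b (0.804) and Mir30c-1 (0.805), because the total of replicate 2 falls. For Mir30b and Mir30c-1, not called and near 1, they also did with all input reads (0.939 and 0.939) and with DESeq2 size factors (0.974 and 0.974). All detected genes tested split into 129 calls higher in replicate 1 and 107 higher in replicate 2 (54.7% higher in replicate 1), and 75 and 175 without Mir122 (30.0%). The number of genes tested was 567 with a minimum of 1 count, and 42.5% were called. No paired analysis was possible because there is a single group. Depth limits the scarce members, with an interval of 0.913 to 1.10 for the ratio of Mir30b.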
